A study of Mus musculus with 7 samples.

Results

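Genes of MHC class II antigen presentation were examined in primary mouse granulosa cells by mRNA sequencing. The genes are the 7 rows of the deposited table, of 50095 genes in all, whose symbols are H2-Aa, H2-Ab1, H2-Eb1, Cd74, H2-DMa, H2-DMb1 and Ciita. They were taken by symbol, from a list chosen with earlier results of these data known. The study removed Ezh2, the histone methyltransferase of the Polycomb repressive complex, with Cre driven by the promoter of Cyp19, the gene of aromatase. The knockout group (KO) had the genotype Ezh2flox/flox; Cyp19-Cre and holds 3 libraries. The comparison group (WT) had the genotype Ezh2flox/+; Cyp19-Cre and holds 4 libraries, so Cre was present in both, and WT cells had 1 floxed allele. All libraries came from 3-week-old females given 5 IU PMSG and, 48 h later, 5 IU hCG, which drive follicle growth and then ovulation. The strain and the time between hCG and collection were not given in the labels used here, and they do not tie libraries to animals, so p-values measure only the spread between these samples. WT4 carried the treatment label of the KO group but the title and genotype of WT, and was kept in WT.

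The deposited values are described as FPKM, which stands for fragments scaled to transcript length and to the mapped total. They keep no counts, so the depth behind each value is unknown. Ezh2 itself was at 20.03, 17.8 and 26.1 FPKM in KO1 to KO3 and at 20.5, 23.4, 25.2 and 25.3 FPKM in WT1 to WT4 (log2 difference -0.15, SE 0.14, adjusted p = 0.432 by limma). Which exons are floxed is not given in the labels used here, so the level of the whole gene need not show the deletion. It does not separate the labels, and KO3 held the highest value of all 7 libraries. The groups are called KO-labelled and WT-labelled for that reason, and each direction given here is between the labels. Of the 13850 genes whose mean over the libraries reached 1 FPKM, 3410 (24.6%) passed an adjusted p of 0.05 by limma on log2(FPKM + 1), 1095 (7.91%) of them higher and 2315 lower in the KO-labelled libraries. The median difference over all genes tested was -0.08 on that log2 scale. Scaling each library to the same total gave a median of -0.21, with 858 of 4796 calls higher, and with median-of-ratios scaling 1593 of 3070 calls were higher.

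MHC class II molecules are pairs of an alpha and a beta chain that carry peptides from the endocytic route to the surface, where CD4+ T cells read them. The chains meet the invariant chain, the product of Cd74, in the endoplasmic reticulum; cathepsins then trim it in endosomes, and the H2-DM pair exchanges its last fragment for peptide. The genes are switched on together by Ciita, a coactivator that binds factors on a conserved promoter element made of the S, X and Y boxes. Dendritic cells, macrophages and B cells are the usual carriers, and interferon gamma induces the pathway in many other cells.

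Letters of the X and Y boxes are shown for H2-Aa, H2-Eb1 and H2-DMb1, because these members hold them in their promoter entries. Their levels are described next. The S box was not sought. H2-Ab1, Cd74 and Ciita had no promoter entry here and were not searched. In each stretch of 90 bases, given 5' to 3' on the strand of the gene, capitals mark the letters GNAAC of an X box core and GATTGG of a Y box core. The sequences are from RefSeq on the build GRCm38.p6.
H2-Aa promoter, chr17:34287854-34287943, minus strand: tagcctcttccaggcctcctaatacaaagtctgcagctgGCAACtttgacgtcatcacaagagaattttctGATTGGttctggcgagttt
H2-Eb1 promoter, chr17:34305747-34305836, plus strand: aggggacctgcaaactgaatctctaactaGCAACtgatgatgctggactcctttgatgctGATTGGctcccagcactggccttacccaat
H2-DMb1 promoter, chr17:34153071-34153160, plus strand: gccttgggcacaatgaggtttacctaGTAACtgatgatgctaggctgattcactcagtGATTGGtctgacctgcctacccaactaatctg
The gap between the capitals was 27 bases in H2-Aa, 26 in H2-Eb1 and 27 in H2-DMb1, and the Y letters began 49, 60 and 62 bases before the start of transcription in H2-Aa, H2-Eb1 and H2-DMb1. The pair was sought as GNAAC followed after 15 to 40 bases by GATTGG, in the 250 bases before each start. It occurred on the strand of the gene in 0.645% of 32851 RefSeq promoters and on either strand in 1.25%, while GATTGG alone occurred in 14.6% and GNAAC alone in 79.6%. Neither of the 2 promoter entries of H2-DMa held both sets of letters. The entry that starts at chr17:34122832 held GNAAC without GATTGG, and that at chr17:34125518 held GATTGG without GNAAC. The letters were chosen with these promoters in view, and a match describes the sequence only.

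The chains of the class II molecule were higher in the KO-labelled libraries. H2-Ab1, the beta chain of the I-A molecule (chr17:34257689-34269419, plus strand), was at 10.7, 4.76 and 11.4 FPKM in KO1 to KO3 and at 1.31, 1.31, 1.81 and 1.47 FPKM in WT1 to WT4. The means were 8.93 ± 3.63 FPKM in KO-labelled and 1.48 ± 0.237 FPKM in WT-labelled libraries (SD, n = 3 and 4), a ratio of 6.05. Even the lowest KO-labelled library, KO2, lay above the highest WT-labelled one, and the log2 difference was 1.93 (SE 0.25, 95% interval 1.37 to 2.49, adjusted p = 0.00367 by limma). H2-Aa, the alpha chain of I-A (chr17:34282744-34287823, minus strand), was at 10.9, 3.24 and 8.72 FPKM in KO1 to KO3 and at 2.14, 1.87, 1.20 and 1.20 FPKM in WT1 to WT4. Its groups did not overlap either, but KO2 stood closer to WT1 than in the beta chain. The means were 7.64 ± 3.97 FPKM in KO-labelled and 1.60 ± 0.480 FPKM in WT-labelled libraries, and the log2 difference was 1.62 (SE 0.32, 95% interval 0.90 to 2.35, adjusted p = 0.0107).

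H2-Eb1, the beta chain of the I-E molecule (chr17:34305867-34316674, plus strand), was the most even of the chains within the KO label. It was at 9.18, 5.64 and 8.94 FPKM in KO1 to KO3 and at 1.95, 1.20, 1.35 and 1.36 FPKM in WT1 to WT4. The means were 7.92 ± 1.98 FPKM in KO-labelled and 1.47 ± 0.330 FPKM in WT-labelled libraries, a log2 difference of 1.84 (SE 0.18, 95% interval 1.44 to 2.23, adjusted p = 0.00234). By p-value it was the tenth of all genes tested. The alpha partner of this chain is represented in the table by H2-Ea-ps, which was listed at 0 in all 7 libraries. In mouse strains that do not express this alpha chain, the I-E molecule does not reach the cell surface.

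Cd74, the invariant chain (chr18:60803848-60812652, plus strand), was the most abundant of the members per transcript length. It was at 22.7, 11.4 and 25.4 FPKM in KO1 to KO3 and at 6.19, 3.75, 3.10 and 2.39 FPKM in WT1 to WT4. Every KO-labelled library was above every WT-labelled one, with means of 19.8 ± 7.42 FPKM in KO-labelled and 3.86 ± 1.65 FPKM in WT-labelled libraries. The log2 difference of 2.08 (SE 0.30, 95% interval 1.40 to 2.77, adjusted p = 0.00498) ranked 37 of the 13850 genes tested. Ranked by level within a library, Cd74 stood at 2506, 4739 and 2312 of the genes tested in KO1 to KO3 and at 7742, 9741, 10326 and 10952 in WT1 to WT4. By the same measure H2-Ab1 stood between 5101 and 8282 in KO-labelled and between 11894 and 12810 in WT-labelled libraries.

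H2-DMa and H2-DMb1, the chains of the peptide exchange factor H2-DM, had means under 1 FPKM over the 7 libraries, so they were outside the fit and were tested 1 at a time. H2-DMa (chr17:34119541-34139101, plus strand) was at 1.50, 0.841 and 1.69 FPKM in KO1 to KO3 and at 0.366, 0.657, 0.425 and 0.350 FPKM in WT1 to WT4. H2-DMb1 (chr17:34153072-34160230, plus strand) was at 1.29, 0.797 and 1.48 FPKM in KO1 to KO3 and at 0.305, 0.406, 0.462 and 0.0826 FPKM in WT1 to WT4. In both genes every KO-labelled library was above every WT-labelled one, with KO2 again the lowest of its group. The difference of mean log2(FPKM + 1) was 0.68 for H2-DMa and 0.73 for H2-DMb1. Each gave p = 0.0286 in an exact permutation test (two-sided, 35 arrangements of the labels), the smallest p it allows. In a limma fit with no filter on low values, where 2.24% of 32922 genes were called higher, the adjusted p was 0.0603 for H2-DMa and 0.0477 for H2-DMb1. Reads of H2-DMb1 could be shared with its near-identical neighbour H2-DMb2, at 0.0842 to 0.262 FPKM in KO-labelled and 0 to 0.155 FPKM in WT-labelled libraries. H2-DMa overlaps Brd2 on the opposite strand, and whether counting used strand was not given in the sources used here. Brd2, a reader of acetylated histones, fell in the KO-labelled libraries (log2 difference -0.46, adjusted p = 0.0122), the opposite direction to that of H2-DMa.

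Ciita, the coactivator of the pathway (chr16:10480059-10528418, plus strand), was near 0 throughout. It was at 0.110, 0.105 and 0.0298 FPKM in KO1 to KO3 and at 0.0288, 0.0631, 0.0183 and 0 FPKM in WT1 to WT4. The groups overlapped, because KO3 was below WT2. The difference of mean log2(FPKM + 1) was 0.07 with a two-sided exact permutation p of 0.143, and a difference could not be resolved at these values. KO3 was the lowest KO-labelled library in Ciita. It was highest of all libraries in H2-Ab1, Cd74, H2-DMa and H2-DMb1, while KO1 was highest in H2-Aa and H2-Eb1. The order of libraries in Ciita rests on values near 0, so nothing is read from it. Ciita overlaps Dexi on the opposite strand, which was at 6.74 to 8.80 FPKM in KO-labelled and 5.29 to 6.95 FPKM in WT-labelled libraries.

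**Figure D1:**
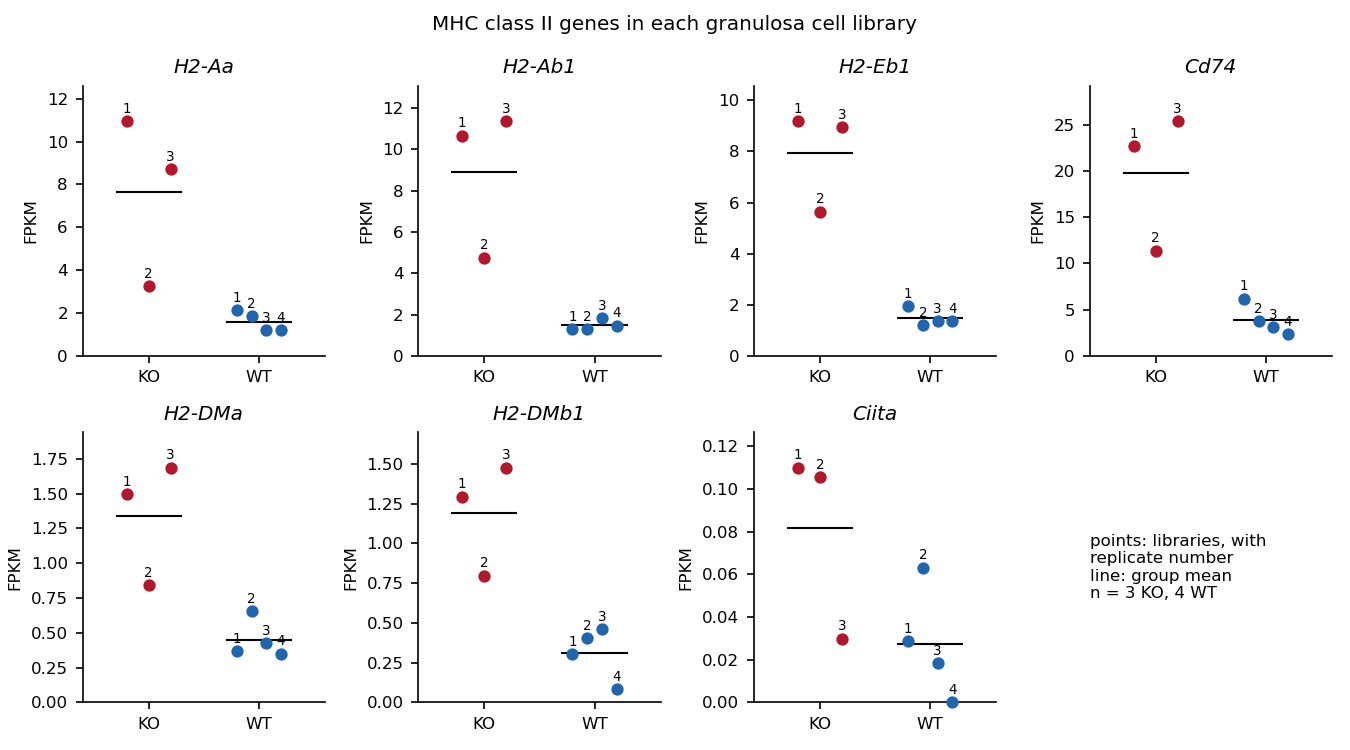
FPKM of the 7 members on linear axes that start at 0, one panel per gene; points are libraries with their replicate number, KO-labelled left of WT-labelled, and lines are group means. The KO-labelled points lie above all WT-labelled points in every gene except Ciita, and KO2 is the lowest KO-labelled point in those 6 genes.

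Of the 7 members, 4 passed the filter and all 4 were called higher, beside 7.91% of all genes tested. In 6 of the 7 members every KO-labelled library was above every WT-labelled one. That order was found in 11.5% of genes tested and in 5.14% of the 19072 genes above 0 with a mean under 1 FPKM. The 4 genes that passed the filter would also have passed it on the WT-labelled libraries alone. As levels in the KO-labelled libraries, Cd74 stood first at 19.8 ± 7.42 FPKM, followed by H2-Ab1 at 8.93 ± 3.63, H2-Eb1 at 7.92 ± 1.98 and H2-Aa at 7.64 ± 3.97 FPKM. The values of the 3 chains overlapped one another, and so did those of H2-DMa at 1.34 ± 0.443 and H2-DMb1 at 1.19 ± 0.352 FPKM.

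**Figure D2:**
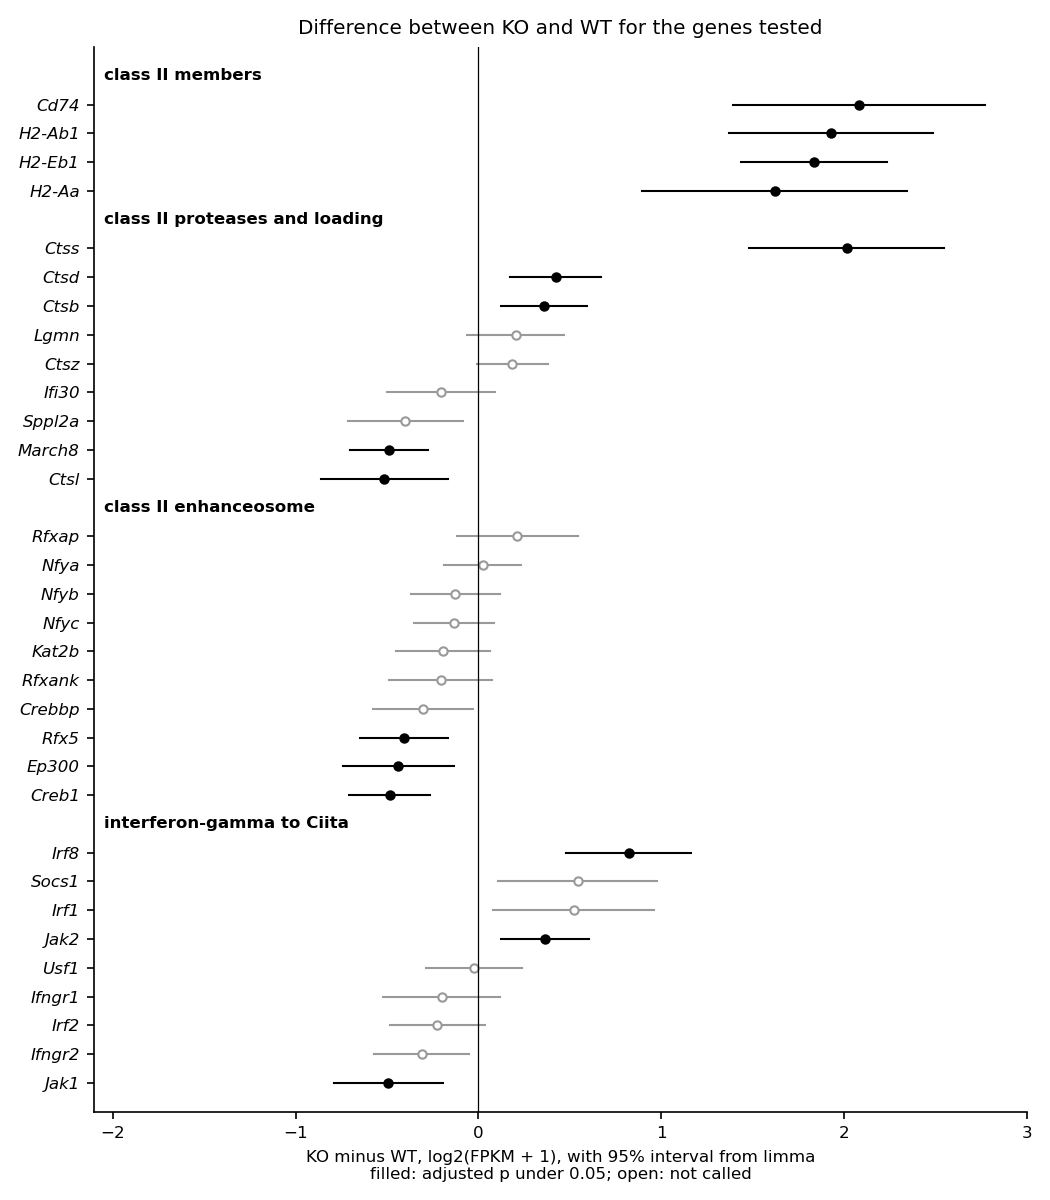
KO minus WT difference of mean log2(FPKM + 1) for the genes in the fit among the members, the proteases, the promoter factors and the interferon route, with 95% intervals from limma; filled points passed an adjusted p of 0.05 and open ones did not. H2-Aa, H2-Ab1, H2-Eb1 and Cd74 lie between 1.62 and 2.08, while the proteases and transcription factors spread on both sides of 0.

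Ratios between members within a library were set beside their levels. The summed level of H2-Aa, H2-Ab1 and H2-Eb1 was 30.8, 13.6 and 29.0 FPKM in KO1 to KO3 and 5.41, 4.38, 4.36 and 4.03 FPKM in WT1 to WT4. The ratio of Cd74 to that sum was 0.736, 0.834 and 0.874 in KO1 to KO3 and 1.14, 0.857, 0.710 and 0.593 in WT1 to WT4, so the groups overlapped in ratio where they did not in level. The ratio of H2-Aa to H2-Ab1 was 0.681 to 1.03 in KO-labelled and 0.659 to 1.63 in WT-labelled libraries. H2-Eb1 to H2-Ab1 was 0.787 to 1.18 in KO-labelled and 0.745 to 1.49 in WT-labelled libraries. The sum of H2-DMa and H2-DMb1 was 0.0906 to 0.12 of the chains in KO-labelled and 0.107 to 0.243 of them in WT-labelled libraries. H2-DMa to H2-DMb1 was 1.16, 1.06 and 1.14 in KO1 to KO3 and 1.20, 1.62, 0.920 and 4.24 in WT1 to WT4, the last from the lowest H2-DMb1 value of the 7 libraries. Within the WT label some ratios spread more than the levels: H2-Aa to H2-Ab1 was 1.13 ± 0.469 there, against 1.60 ± 0.480 FPKM for H2-Aa. All of these ratios overlapped between the labels and were given no test.

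Among the remaining class II subunits, none reached the filter. H2-Oa, a chain of H2-DO, the inhibitor of H2-DM, was at 0.391, 0.399 and 0.614 FPKM in KO1 to KO3 and at 0.591, 0.376, 0.142 and 0.0624 FPKM in WT1 to WT4. H2-Oa thus overlapped between the labels. H2-Ob, its partner, was listed at 0 in 4 libraries and was at most 0.0667 FPKM, and H2-Eb2 was above 0 in WT4 alone.

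Of 9 tested genes that process or retain class II molecules, 3 were called higher and 2 lower. Over all 13850 genes tested, 1095 (7.91%) were called higher and 2315 lower. The list's median log2 difference was 0.19, against -0.08 for all genes tested. Ctss, cathepsin S, the protease that makes the last cut of the invariant chain in antigen-presenting cells, was at 12.7, 6.98 and 15.6 FPKM in KO1 to KO3 and at 2.79, 1.90, 1.81 and 1.68 FPKM in WT1 to WT4. The groups were far apart and the log2 difference was 2.02 (SE 0.24, adjusted p = 0.00314 by limma). Ctsl, cathepsin L, which does this work in thymic epithelium, fell to 738 ± 164 FPKM in KO-labelled libraries, against 1039 ± 44.5 FPKM in WT-labelled ones (log2 difference -0.52, adjusted p = 0.0392). In both labels Ctsl was by far the more abundant of these cathepsins per length. The lysosomal proteases Ctsd (log2 difference 0.42, adjusted p = 0.0259) and Ctsb (0.36, adjusted p = 0.0361) rose by less than Ctss. March8, a ubiquitin ligase that can remove surface receptors of this kind, fell to 9.73 ± 0.262 FPKM in KO-labelled libraries, against 14.1 ± 1.18 FPKM in WT-labelled ones (log2 difference -0.49, adjusted p = 0.00989). Ctss and March8 were called under both scalings and whichever library was left out. The calls of Ctsb and Ctsd were lost with an equal sum of FPKM and that of Ctsl with median-of-ratios scaling. Leaving out any 1 library except KO2 ended the call of Ctsl (adjusted p up to 0.108), any except WT2 that of Ctsb (up to 0.108), and KO3, WT3 or WT4 that of Ctsd (up to 0.0825).

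Among 10 tested genes of the factors that hold Ciita on the promoter, none was called higher and 3 were called lower. Their median log2 difference was -0.20. Over all 13850 genes tested, 1095 (7.91%) were called higher and 2315 lower, so 10 genes are too few to set this list apart. Rfx5, the DNA-binding subunit of the X box complex, fell to 4.64 ± 0.145 FPKM in KO-labelled libraries, against 6.51 ± 0.717 FPKM in WT-labelled ones (log2 difference -0.41, adjusted p = 0.0250). Creb1, which also binds the X box region, fell by 0.49 on the log2 scale (adjusted p = 0.0113), and the acetyltransferase gene Ep300 fell by 0.44 (adjusted p = 0.0441). Nfyc, a subunit of the Y box factor NF-Y, was at 22.5 ± 2.57 FPKM in KO-labelled and 24.7 ± 0.611 FPKM in WT-labelled libraries and was not called (log2 difference -0.13, adjusted p = 0.324). Creb1 was called whichever library was left out, while Rfx5 was not called without KO1, KO2, KO3, WT2 or WT3 (adjusted p up to 0.0810). Ep300 was not called with median-of-ratios scaling, nor without KO1, KO3, WT2, WT3 or WT4 (adjusted p up to 0.152).

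In the route by which interferon gamma induces Ciita, 2 of 9 tested genes were called higher and 1 lower. Beside them, 1095 (7.91%) of all 13850 genes tested were called higher and 2315 lower. On the WT-labelled libraries alone 8 of the 9 would have passed the filter, with 1 called higher and 1 lower. The list's count higher moved between 1 and 4 with 1 library left out. With median-of-ratios scaling 4 were higher and 0 lower, and with an equal sum of FPKM 1 was higher and 2 lower. The median log2 difference was -0.02, with 0.07 under median-of-ratios scaling and -0.17 under an equal sum, so the list has no settled direction. Ifng itself was listed at 0 in all 7 libraries. Irf1, an interferon regulatory factor that can induce Ciita, was at 26.4, 18.5 and 24.7 FPKM in KO1 to KO3 and at 22.9, 13.97, 14.6 and 12.9 FPKM in WT1 to WT4. KO2 lay below WT1, so the groups overlapped, and Irf1 was not called (log2 difference 0.52, SE 0.20, adjusted p = 0.0808) except with median-of-ratios scaling (adjusted p = 0.0483) and without WT1 (0.0148) or KO2 (0.0496). Irf8, an interferon regulatory factor best known in myeloid cells and B cells, rose to 2.30 ± 0.468 FPKM in KO-labelled libraries, against 0.858 ± 0.187 FPKM in WT-labelled ones (log2 difference 0.82, adjusted p = 0.00884), and passed the filter only through the KO-labelled libraries. The receptor kinase genes went in opposite directions, with Jak2 higher by 0.36 (adjusted p = 0.0369) and Jak1 lower at -0.49 (adjusted p = 0.0277) on the log2 scale. Irf8 alone of these genes was called whichever library was left out, but it had to differ to pass the filter, so its call is no support. Jak2 was not called without KO1, KO3, WT2, WT3 or WT4 (adjusted p up to 0.108) or with an equal sum of FPKM, and Jak1 not without KO1, WT2, WT3 or WT4 (up to 0.0943) or with median-of-ratios scaling.

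Most co-stimulatory genes, 9 of 11, had a mean under 1 FPKM. In 6 of the 11 every KO-labelled library was above every WT-labelled one. That order was found in 11.5% of genes tested and in 5.14% of genes above 0 with a mean under 1 FPKM. Of 11 such genes 2 were tested, and Icam1, the adhesion molecule that T cells bind through LFA-1, rose to 4.54 ± 1.83 FPKM in KO-labelled libraries, against 1.13 ± 0.441 FPKM in WT-labelled ones (log2 difference 1.36, adjusted p = 0.00827). Icosl, the ligand of ICOS, was at 11.2 ± 2.40 FPKM in KO-labelled and 13.4 ± 1.25 FPKM in WT-labelled libraries and was not called (adjusted p = 0.230). Cd274, which encodes PD-L1, averaged 0.850 ± 0.395 FPKM in KO-labelled and 0.245 ± 0.0876 FPKM in WT-labelled libraries, and Lag3, a class II receptor, 0.563 ± 0.0838 FPKM in KO-labelled and 0.537 ± 0.130 FPKM in WT-labelled libraries. Both were under the filter.

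The class I pathway, which presents cytosolic peptides, had 6 of 13 tested genes higher and 2 lower, with a median log2 difference of 0.52. Over all 13850 genes tested, 1095 (7.91%) were called higher and 2315 lower. B2m, the light chain, was at 396, 299 and 401 FPKM in KO1 to KO3 and at 158, 174, 151 and 151 FPKM in WT1 to WT4 (log2 difference 1.19, SE 0.13, adjusted p = 0.00275). The heavy chains H2-K1 and H2-D1 rose by 0.83 and 0.82 on the log2 scale (adjusted p = 0.00314 and 0.00330). Their differences were smaller than those of the class II chains, from much higher levels in both labels. The immunoproteasome subunits Psmb8 (log2 difference 1.39, adjusted p = 0.00839) and Psmb10 (1.01, adjusted p = 0.0186) and the loading factor Tapbp (0.52, adjusted p = 0.0477) also rose. The trimming peptidase Erap1 (log2 difference -0.47, adjusted p = 0.0298) and the chaperone Pdia3 (-0.46, adjusted p = 0.0283) fell, and neither was called with median-of-ratios scaling. B2m, H2-K1, H2-D1 and Psmb8 were called whichever library was left out. Psmb10 was not called without KO1 or KO3 (adjusted p up to 0.0745), nor Tapbp without KO1, KO3, WT1, WT3 or WT4 (up to 0.142) or with an equal sum of FPKM. Erap1 was not called without KO1, KO2, WT2 or WT3 (up to 0.110), nor Pdia3 without KO1, KO3, WT2 or WT3 (up to 0.0783).

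Markers of cells that carry class II moved with these genes. In the macrophage list of 21 genes, 9 would have passed the filter on the WT-labelled libraries alone, of which 8 were called higher and none lower, with a median log2 difference of 1.49. Another 5 genes, Csf1r among them, passed only through the KO-labelled libraries and had to differ, so their calls are no support; with them 13 of 14 tested genes were higher. The summed level of the list was 150.0, 78.7 and 159.6 FPKM in KO1 to KO3 and 50.7, 34.9, 33.3 and 29.4 FPKM in WT1 to WT4. The order of the libraries in that sum has KO2 lowest within its label and WT1 highest within its own, as in Cd74. Csf1r, the receptor that macrophages depend on, was at 2.72, 1.98 and 3.57 FPKM in KO1 to KO3 and at 0.898, 1.10, 0.536 and 0.525 FPKM in WT1 to WT4 (log2 difference 1.08, adjusted p = 0.00739). Adgre1, which encodes F4/80, was at 0.980 to 1.72 FPKM in KO-labelled and 0.264 to 0.421 FPKM in WT-labelled libraries, and Ptprc, the pan-leukocyte gene of CD45, at 0.549 to 1.04 FPKM in KO-labelled and 0.177 to 0.480 FPKM in WT-labelled libraries. The complement gene C1qa had a log2 difference of 2.36 (adjusted p = 0.00253), above that of any class II member, and C1qc 1.96 (adjusted p = 0.00395), C1qb 1.87 (adjusted p = 0.00725) and Lyz2, lysozyme, 1.38 (adjusted p = 0.0147) also rose. Of the 13 called genes, which take in the 5 whose calls are no support, 11 were called whichever library was left out. Lyz2 was not called without KO1 or KO3 (adjusted p up to 0.0588), nor Mrc1, the mannose receptor, without KO1 (0.0643). In a bulk library, more cells of a type and more RNA per cell cannot be told apart. The part of macrophage RNA in the class II differences was not tested.

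Set against these markers, the class II chains gave different pictures with different denominators. The ratio of the 3 chains to the summed macrophage list was 0.205, 0.173 and 0.182 in KO1 to KO3 and 0.107, 0.126, 0.131 and 0.137 in WT1 to WT4, with no overlap. That sum holds Lyz2, which made up 23.8 to 25% of it in KO-labelled and 25.6 to 38.0% in WT-labelled libraries. The ratio of the chains to the summed C1qa, C1qb and C1qc, a denominator chosen after the values were seen, was 0.560, 0.558 and 0.506 in KO1 to KO3 and 0.534, 0.498, 0.553 and 0.668 in WT1 to WT4, with overlap. The ratio to Ptprc was 56.1, 17.3 and 27.9 in KO1 to KO3 and 13.8, 9.13, 14.3 and 22.7 in WT1 to WT4, also with overlap, and rests on low values of Ptprc. These ratios are descriptions with no test.

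**Figure D3:**
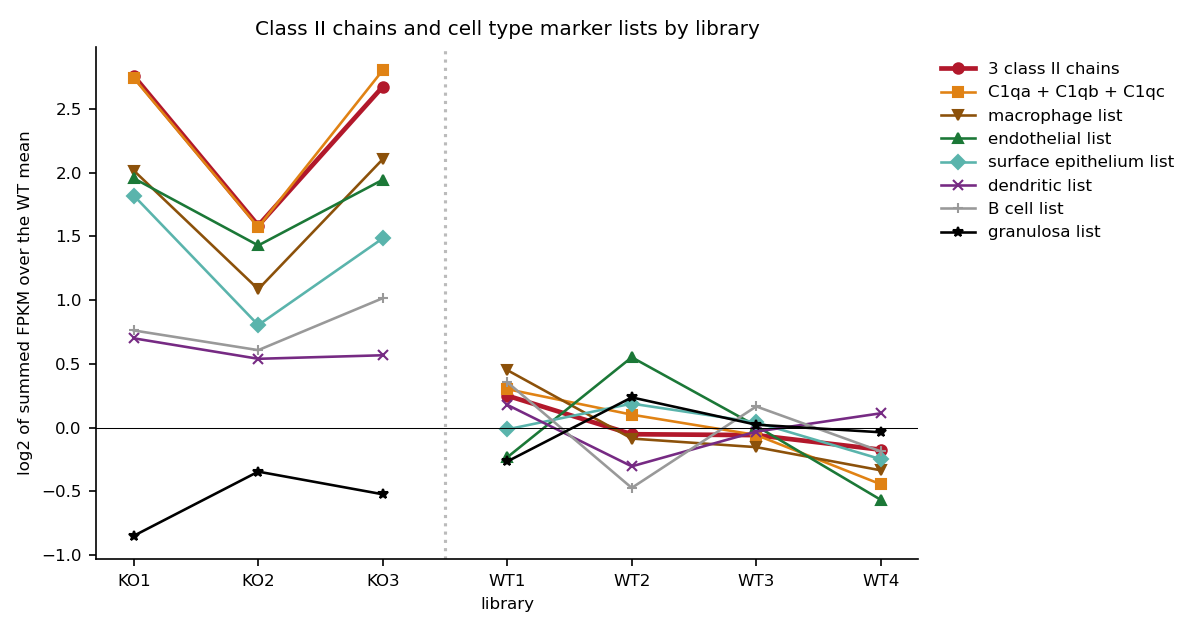
Log2 of the summed FPKM of the 3 class II chains, of C1qa, C1qb and C1qc and of 6 cell type lists in each library (x axis), relative to the WT-labelled mean of each sum, with KO-labelled libraries on the left. Every sum except that of granulosa genes is higher in each KO-labelled library than in any WT-labelled one, the granulosa sum is lower, and lines join the libraries of a label only to guide the eye.

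Most markers of other class II carriers were under the filter, 9 of 12 dendritic and 7 of 9 B cell genes. In 6 of the 12 dendritic and 2 of the 9 B cell genes every KO-labelled library was above every WT-labelled one. That order was found in 11.5% of genes tested and in 5.14% of genes above 0 with a mean under 1 FPKM. Of the dendritic markers, Flt3 was listed at 0 in all 7 libraries and Itgax, the gene of CD11c, was at 0.343 to 0.404 FPKM in KO-labelled and 0.206 to 0.466 FPKM in WT-labelled libraries, with overlap. Zbtb46 was at 4.12 ± 0.711 FPKM in KO-labelled and 3.49 ± 0.592 FPKM in WT-labelled libraries and was not called (adjusted p = 0.352). Of 12 genes in that list 3 were tested and 2 called higher. These were Clec10a (log2 difference 0.73, adjusted p = 0.0136), which passed the filter only through the KO-labelled libraries, and Cd24a (0.62, adjusted p = 0.0416). The summed level was 22.0 to 24.6 FPKM in KO-labelled and 12.2 to 17.1 FPKM in WT-labelled libraries. Cd24a alone of the list had a mean of at least 5 FPKM, so that sum holds more of it than of any other gene. Of the B cell markers, Cd79a was at 0.253 to 0.311 FPKM in KO-labelled and 0.200 to 0.388 FPKM in WT-labelled libraries, and Ms4a1 was not called (adjusted p = 0.508). Ighm, the mu heavy chain, was the 1 gene called of 2 tested in the B cell list of 9 (log2 difference 0.87, adjusted p = 0.0173). Clec10a was not called without KO1 (adjusted p = 0.0613), Ighm not without KO1 or KO3 (up to 0.0654), and Cd24a not without any 1 library except WT1 (adjusted p up to 0.123) or with an equal sum of FPKM. The B cell sum was 5.63 to 7.47 FPKM in KO-labelled and 2.66 to 4.73 FPKM in WT-labelled libraries. Batf3, a dendritic cell factor, and Cd79b, a B cell receptor chain, were under the filter, at 0.379 to 1.97 and 0.0347 to 0.394 FPKM in KO-labelled libraries and at 0.0965 to 1.03 and 0 to 0.204 FPKM in WT-labelled ones. Of 14 T and NK cell genes 1 was tested and none called, with Cd3e, Cd3g and Ncr1 at 0.192 FPKM or less in every library. Lck, the kinase of T cell receptors, was the gene tested (adjusted p = 0.537). Trac was at 0.325 to 0.367 FPKM in KO-labelled and 0 to 0.662 FPKM in WT-labelled libraries, and Trbc2 at 0.395 to 0.958 FPKM in KO-labelled and 0.207 to 0.617 FPKM in WT-labelled libraries. Gzma, granzyme A, did not overlap, at 1.36, 0.719 and 2.18 FPKM in KO1 to KO3 and 0.150 to 0.202 FPKM in WT-labelled libraries. The sum of the list was 3.89 to 5.50 FPKM in KO-labelled and 2.12 to 4.21 FPKM in WT-labelled libraries, which overlapped. The part of these cells in the class II differences was not tested.

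Marker genes of cell types that are not usual carriers of class II differed between the labels as well. Of 12 endothelial genes, 6 would have passed the filter on the WT-labelled libraries alone, and these 6 were called higher (median log2 difference 1.26). The 4 others tested passed only through the KO-labelled libraries and had to differ. The sum of the list was 47.0 to 67.7 FPKM in KO-labelled and 11.8 to 25.6 FPKM in WT-labelled libraries. The most abundant, Egfl7 (log2 difference 1.28, adjusted p = 0.00786), Eng (1.93, adjusted p = 0.00330), Pecam1 (1.23, adjusted p = 0.00234) and Esam (1.34, adjusted p = 0.00572), rose whichever library was left out. Of 11 surface epithelium genes, 9 would have passed on the WT-labelled libraries alone, of which 8 were called higher (median 1.08), and 1 more passed only through the KO-labelled ones. The sum of that list was 68.3 to 138.2 FPKM in KO-labelled and 32.9 to 44.5 FPKM in WT-labelled libraries. The keratin genes Krt8 (log2 difference 1.08, adjusted p = 0.0104), Krt18 (1.81, adjusted p = 0.00416) and Krt19 (1.52, adjusted p = 0.00701) rose whichever library was left out, and Upk3b (1.06, adjusted p = 0.0196) was not called without KO1 or KO3 (up to 0.0772). The granulosa list had 6 of 12 genes called lower and none higher (median -0.69), with sums of 2949 to 4181 FPKM in KO-labelled and 4419 to 6262 FPKM in WT-labelled libraries. Its most abundant genes, the inhibin and activin subunits Inha and Inhba, the follistatin gene Fst and Amh, were not called on the deposited scale (adjusted p = 0.0799, 0.0929, 0.0648 and 0.155). Foxl2, the defining transcription factor of granulosa cells, was at 14.8, 10.2 and 14.6 FPKM in KO1 to KO3 and at 18.3, 20.5, 16.9 and 13.3 FPKM in WT1 to WT4, which did not pass the test on that scale (adjusted p = 0.138). Fshr, the FSH receptor, fell by 1.0 on the log2 scale (adjusted p = 0.00854) and Cyp19a1, aromatase, by 1.93 (adjusted p = 0.0113). Of the 6 granulosa calls, 3 were made whichever library was left out, those of Fshr, Cyp19a1 and Esr2, and the count moved between 3 and 7. With an equal sum of FPKM 10 of 12 were called lower, Inha (adjusted p = 0.0223), Fst (0.0333), Foxl2 (0.0371) and Amh (0.0479) among them, while 5 were called with median-of-ratios scaling and 2 with no filter. The granulosa label is therefore borne by high levels of these genes in all 7 libraries, beside macrophage, endothelial and epithelial transcripts in all 7. The part of these differences in the class II result was not tested.

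The genes most like the class II chains and Cd74 across the 7 libraries were sought by the root mean square difference of their log2(FPKM + 1) profiles, each centred on its own mean, from the mean profile of H2-Aa, H2-Ab1, H2-Eb1 and Cd74. The median of that difference over all genes tested was 1.03, and the members themselves lay between 0.145 for H2-Eb1 and 0.211 for Cd74. The nearest gene was Ctss at 0.115. It was followed by Mnda, listed as Ifi211 in GENCODE, at 0.118, Vgll3, a transcription cofactor, at 0.133 and Sphk1, which makes sphingosine 1-phosphate, at 0.134. Then came Rab20, a small GTPase, at 0.156, C1qb at 0.158, Apoe, a lipid carrier abundant in macrophages, at 0.160 and the interferon-inducible Ifi204 at 0.163. Sphk1 was at 7.48, 3.16 and 6.81 FPKM in KO1 to KO3 and at 1.07, 1.21, 0.978 and 0.711 FPKM in WT1 to WT4. It shows the pattern of the group, with KO1 and KO3 high, KO2 between and all WT-labelled libraries low. The measure rewards any gene with a difference of this size, so the direction of these 8 genes is no further result.

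Most members lie in the class II region of chromosome 17, so the neighbouring genes were described too. The table holds 34 genes that start within 250 kb of the start of H2-Aa, and 8 of them were tested, 3 of which are members. Among the 5 others Psmb8, which starts 90.1 kb on the lower-coordinate side of H2-Aa, was called higher, Brd2 was called lower, and Tap1, Tap2 and Psmb9 were not called. The median log2 difference of those 5 was 0.46. Psmb9 was at 4.90, 1.49 and 4.37 FPKM in KO1 to KO3 and at 1.0, 1.70, 1.82 and 1.31 FPKM in WT1 to WT4 (log2 difference 0.82, adjusted p = 0.0637). Its KO2 value lay inside the WT-labelled range, where those of the class II chains did not. Tap2 was at 3.43 to 4.47 FPKM in KO-labelled and 3.42 to 4.88 FPKM in WT-labelled libraries (log2 difference -0.04, 95% interval -0.35 to 0.26). H2-Ab1 and H2-Eb1 start 30.1 kb before and 18.0 kb after H2-Aa in coordinate order.

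**Figure D4:**
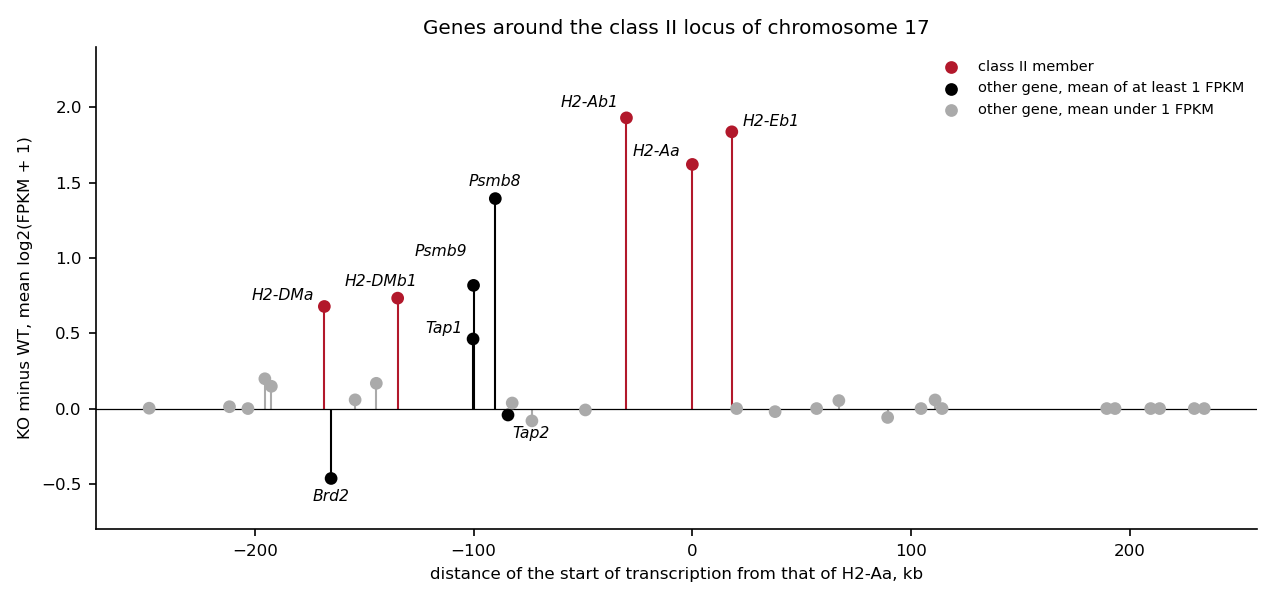
KO minus WT difference of mean log2(FPKM + 1) for table genes around H2-Aa, by the distance in kb of each gene's start from that of H2-Aa; members are in red, other genes inside the filter in black and the rest in grey. The chains reach 1.62 to 1.93 while Tap2 lies near 0 and Brd2 at -0.46.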

How the data were processed

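Poly(A) mRNA of 7 libraries was sequenced as paired reads, per the labels. The submitters' processing notes name HISAT2, Trimmomatic, FastQC, edgeR, DESeq2, HTSeq 0.12.4 and the build mm10, with no role or order. The authors deposited 1 table, described as FPKM. Its column names carry no unit, and its values do not settle how they were computed. Low values could not be resolved into whole reads (at most 14.8 to 19.9% of them per library), so depth is unknown and no count test was run. Columns were matched to samples by title.

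Genes averaging 1 FPKM or more were fitted as log2(FPKM + 1) with limma 3.58.1 in R 4.3.3 (trended empirical Bayes, KO against WT, no covariate, two-sided, Benjamini-Hochberg over all genes tested, called at an adjusted p under 0.05). A fold on this scale understates the change of low genes. Members under the filter were tested by an exact permutation test. The fit was tested on simulated data. Alternatives were another pseudocount, other filters, other scalings, a replicate block and each library left out.

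The members and lists were chosen with earlier results of these data known. Every member is named. From the pathway lists up to 8 called genes are named, and the highest by mean up to 4 where fewer than 4 were called. From the cell type lists the 4 highest genes by mean and the defining markers are given. Ifng, H2-Ea-ps, Mrc1, Esr2 and the neighbours of H2-Aa were named beside those, after their values were seen. Of the genes in the lists, 2 are not reported here and enter no count, median or sum. Of the list symbols, 4 were found in the table by Ensembl ID. Coordinates are from GENCODE vM21 on GRCm38.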

Additional observations from a re-analysis of the deposited data

Results flagged for a closer look

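For 70 of the genes examined, the values of the 4 WT-labelled libraries were taken as a group. In each group a library was looked for whose gap to the nearest other exceeded Dixon's 95% critical share of the range. There were 4 such libraries, near the number that chance gives in 70 groups at about 1 in 20. H2-Eb2 was at 0.0582 FPKM in WT4 and at 0 in the other WT-labelled libraries, a case in which any value above 0 is flagged. Lyz2 was at 19.3 FPKM in WT1 and at 8.53 to 9.80 FPKM in the others, so WT1 raises the WT-labelled mean of that macrophage gene. Irf1 was at 22.9 FPKM in WT1 and at 12.9 to 14.6 FPKM in the others. Amh, a granulosa gene, was at 313.0 FPKM in WT1 and at 148.3 to 171.8 FPKM in the others. No member was among the 4.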

How the results depend on the processing

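All 4 members in the fit were called higher in every setting that tested them: another pseudocount, both scalings, no filter, the replicate block and each library left out. With no filter 5 of 7 members were called (H2-DMb1 besides), and with a minimum mean of 5 FPKM only Cd74 was tested, so 1 member was called. Leaving out 1 library moved the log2 difference between 1.32 and 2.07 for H2-Aa, 1.73 and 2.28 for H2-Ab1, 1.73 and 2.04 for H2-Eb1, and 1.87 and 2.42 for Cd74. The highest adjusted p among these was 0.0409, for H2-Aa, and with no filter on low values H2-Aa had an adjusted p of 0.0490 by limma. For H2-DMa the difference without 1 library lay between 0.57 and 0.84 and for H2-DMb1 between 0.64 and 0.87, where the exact permutation test cannot go below 0.0667 or 0.1; with no filter H2-DMa had an adjusted p of 0.0603. With a pseudocount of 0.1 the differences of H2-DMa and H2-DMb1 were 1.37 and 1.72.

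Calls over all genes were 3410 and moved more: 1865 with no filter, and 1293 to 3369 without 1 library (1293 without KO1, 1552 without WT3, 2022 without WT2). Same-numbered libraries had correlations of their deviations of 0.193, -0.11 and 0.071. Differently numbered ones had -0.167 to 0.261. So few values cannot settle whether the numbers pair the samples, and the pairing is unknown. With the replicate block, in which WT4 alone has its number and adds nothing to the comparison, 4 members and 2671 genes were called. Libraries of unknown depth limit Ciita, H2-DMa and H2-DMb1 most, since their values are the lowest.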
